A study of Mus musculus with 2 samples.

Results

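Chromatin accessibility was examined at 10 genes of smooth muscle cells and pericytes in the mouse ovary, namely Acta2, Tagln, Myh11, Cnn1, Mylk, Lmod1, Des, Actg2, Notch3 and Pdgfrb. They were taken by name, not by their signal, from the 21728 protein-coding genes outside chromosome Y and the mitochondrion. Each gene was read over its GENCODE M21 body and 50 kb either side (mouse build mm10), 1.55 Mb in all, and these windows did not overlap. The data are DNase-seq, a map of where the enzyme DNase I can reach and cut the chromatin, from whole ovary of adult female B6CASTF1/J mice aged 18 to 20 months, the first-generation hybrid of C57BL/6 and CAST. A single group of 2 libraries, biological replicates 1 and 2, was deposited, so no condition was compared and every SD below is over n = 2. Both libraries carry 1 donor entry, and the labels do not say whether separate animals were used. Whole tissue was used, so fewer smooth muscle cells and less open DNA in each such cell cannot be told apart.

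Smooth muscle cells lie in the walls of the arterioles of the ovary and form a contractile layer around its follicles, and pericytes wrap its capillaries. Both carry actin, myosin and the proteins that tune their contraction. The PDGF receptor beta and the Notch receptor NOTCH3 act in pericytes, though not only there. In smooth muscle, the transcription factor SRF with its partners of the myocardin family binds a sequence called the CArG box, which is CC, then 6 bases of A or T, then GG. Such boxes are well known near the starts and in the first introns of contractile genes.

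The authors' lists of open sites (peaks) gave a signal for each peak, scaled by them for depth. All signal values were whole multiples (within 0.05 of a step) of 0.0108 in replicate 1 and 0.00782 in replicate 2. Read depth itself is unknown. Of the lists deposited for each library the longer was used, with 95898 and 83982 peaks. A peak within 500 bp of any annotated transcription start of a gene was called its promoter peak, and a gene with such a peak in both libraries was called open. A site was called shared if peaks of both libraries overlapped there by at least 1 bp, and it was placed by its distance from the annotated 5′ end of the gene.

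Promoters of 9 of the 10 genes were open, Actg2 being the exception, against 62.3% of all protein-coding genes. These peaks were weak. The median signal of the 9 open promoters was 0.818 in replicate 1 and 0.852 in replicate 2, whereas that of all 13529 open genes was 3.96 and 4.06. Mylk was the only gene of the 9 above the median of open genes, in both libraries.

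Acta2 encodes smooth muscle alpha-actin, the main actin of contractile smooth muscle (ENSMUSG00000035783.9, chromosome 19, 34241090 to 34255590, minus strand). Its promoter signal was 0.797 in replicate 1 and 0.719 in replicate 2 (0.758 ± 0.0548, SD, n = 2), and 7.14% and 6.70% of open promoters were weaker. A peak was also found at an internal annotated start 1360 bp downstream, with 0.786 in replicate 1 and 0.602 in replicate 2, so the internal start was no stronger than the 5′ end. The sequences of both places are shown because they hold the CArG boxes of this gene. At the 5′ end, RefSeq's promoter sequence (build GRCm38.p6, minus strand, chr19:34255438-34255467 and chr19:34255388-34255417) holds a pair of CArG-like boxes, with 1 C or G allowed among the central 6 bases. They lie upstream of the RefSeq start and inside the 5′ untranslated region of the GENCODE transcript, which starts further upstream. In the first intron (RefSeq genome, minus strand, chr19:34254231-34254400), just upstream of the internal start, lies an exact CArG box. Capitals mark the boxes.
Acta2 promoter, first box: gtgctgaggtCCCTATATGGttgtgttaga
Acta2 promoter, second box: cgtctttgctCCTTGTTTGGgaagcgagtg
Acta2 first intron: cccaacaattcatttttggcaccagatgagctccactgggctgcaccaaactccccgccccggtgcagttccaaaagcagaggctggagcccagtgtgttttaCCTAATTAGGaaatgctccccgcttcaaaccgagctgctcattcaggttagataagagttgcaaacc
The intronic box was centred 63 bp upstream of the internal start. It overlapped a footprint, a short stretch protected from cutting inside an open site, in both libraries. The footprint spanned 34254290 to 34254296 in replicate 1 and 34254285 to 34254293 in replicate 2. Neither box at the 5′ end overlapped a footprint in either library.

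Actg2 encodes the gamma-actin of visceral smooth muscle (ENSMUSG00000059430.14, chromosome 6, 83512905 to 83536265, minus strand). No peak lay within 500 bp of any of its 6 annotated starts in either library. The lists of bases with a false discovery rate under 0.05 also held 0 bases within 500 bp of each start, in both libraries. These files list only what passed the authors' limits, so the level below them is not known. Open sites were nonetheless found in the gene body. A pair of shared sites lay in its introns, 12.58 kb inside the gene with 0.904 in replicate 1 and 1.20 in replicate 2, and 14.33 kb inside with 0.581 and 1.87. The second was 3.21-fold higher in replicate 2, which also had 5 footprints there against 1 in replicate 1.

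Myh11 encodes the smooth muscle myosin heavy chain, the motor of contraction and one of the markers most restricted to this lineage (ENSMUSG00000018830.10, chromosome 16, 14194535 to 14291372, minus strand). Its 4 annotated starts lie within 9 bp and shared 1 peak of 1.93 in replicate 1 and 1.62 in replicate 2 (1.77 ± 0.219, SD, n = 2). Of all open promoters, 24.8% in replicate 1 and 22.1% in replicate 2 were weaker. Tagln, the gene of the actin-binding protein transgelin or SM22-alpha (ENSMUSG00000032085.5, chromosome 9, 45929619 to 45936058, minus strand), had 0.764 and 0.977 (0.871 ± 0.150). It had no footprint in its promoter peak in replicate 1 and 3 in replicate 2.

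Cnn1 encodes calponin, which binds actin and slows the myosin ATPase (ENSMUSG00000001349.5, chromosome 9, 22099216 to 22109630, plus strand). Its promoter signal was the lowest of the 9, at 0.517 in replicate 1 and 0.680 in replicate 2 (0.598 ± 0.115, SD, n = 2), with 2.58% and 6.08% of open promoters weaker. Lmod1 encodes leiomodin, which nucleates actin filaments in smooth muscle (ENSMUSG00000048096.7, chromosome 1, 135324807 to 135368065, plus strand), and had 0.818 and 0.852 (0.835 ± 0.0239). The sequences upstream of both starts are shown because each held bases that lay in footprints of both libraries, marked by capitals. They come from RefSeq's promoter sequences (build GRCm38.p6, plus strand, chr1:135324563-135324806 for Lmod1 and chr9:22099003-22099215 for Cnn1).
Lmod1 promoter: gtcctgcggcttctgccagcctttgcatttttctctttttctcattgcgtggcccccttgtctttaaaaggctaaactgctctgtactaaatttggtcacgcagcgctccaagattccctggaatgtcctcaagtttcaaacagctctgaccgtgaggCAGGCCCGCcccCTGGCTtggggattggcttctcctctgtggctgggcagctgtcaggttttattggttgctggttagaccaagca
Cnn1 promoter: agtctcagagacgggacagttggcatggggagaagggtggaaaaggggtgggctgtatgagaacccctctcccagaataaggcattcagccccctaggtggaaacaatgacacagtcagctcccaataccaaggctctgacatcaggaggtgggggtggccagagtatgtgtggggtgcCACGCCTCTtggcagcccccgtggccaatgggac
In Lmod1 the shared footprints overlapped a GC box (GGGCGG on either strand, bound by factors of the SP and KLF families) 78 bp upstream of the start. In Cnn1 the shared footprint bases overlapped none of the searched sequences that are spelled out below, and neither promoter held an exact CArG box.

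Mylk encodes myosin light chain kinase, which phosphorylates the regulatory light chain and so starts contraction (ENSMUSG00000022836.11, chromosome 16, 34745210 to 35002420, plus strand). The locus makes a long kinase, a short kinase and, near its 3′ end, the protein telokin. At 257 kb it was the longest of the 10 genes, with 8 annotated starts. The peak at its 5′ end had 4.69 in replicate 1 and 5.21 in replicate 2 (4.95 ± 0.362, SD, n = 2), above 58.0% and 59.4% of open promoters. A weaker shared peak of 0.732 and 0.719 lay at a start 249.6 kb downstream. The start at 39.7 kb had a peak of 0.441 in replicate 1 only, and the other 5 starts had none.

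Des encodes desmin, the intermediate filament of all muscle types (ENSMUSG00000026208.9, chromosome 1, 75360329 to 75368579, plus strand). Its promoter peak was 0.646 in replicate 1 and 0.711 in replicate 2 (0.679 ± 0.0462, SD, n = 2), and only 4.45% and 6.57% of open promoters were weaker. Des and Mylk had the most CpG-rich starts of the 10. The observed-to-expected CpG ratio within 500 bp of the 5′ end was 0.710 for Des and 0.801 for Mylk, against 0.341 at the median of the 10 genes and 0.558 at that of all genes. A CpG-rich start thus went with the strongest peak of the 10 in Mylk and with the second weakest in Des.

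Of the receptors, Notch3 keeps mural cells differentiated. The gene (ENSMUSG00000038146.8, chromosome 17, 32120820 to 32166852, minus strand), had 1.00 in replicate 1 and 0.782 in replicate 2 (0.891 ± 0.155). Its 2 other annotated starts, 29.0 and 33.1 kb inside the gene, had no peak. The RefSeq promoter sequence of Notch3 (GRCm38.p6, minus strand, chr17:32166891-32167140) is shown because it holds 4 GC boxes. It ends upstream of the GENCODE 5′ end, from which distances are counted. The 2 boxes nearest that end, 59 and 73 bp upstream of it, overlapped footprints of both libraries by at least 1 base. Capitals mark the bases in footprints of both, which take in only 1 base of each of these 2 boxes.
Notch3 promoter: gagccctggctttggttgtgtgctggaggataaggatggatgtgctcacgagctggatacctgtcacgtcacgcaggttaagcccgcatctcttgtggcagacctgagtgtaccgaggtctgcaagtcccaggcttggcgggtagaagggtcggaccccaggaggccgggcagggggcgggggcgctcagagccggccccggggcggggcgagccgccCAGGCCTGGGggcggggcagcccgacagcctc
Of the 10 genes, 6 matched RefSeq's promoter table, and Tagln, Myh11, Actg2 and Pdgfrb did not.

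The other receptor gene, Pdgfrb, which receives PDGF-B from endothelium and recruits pericytes (ENSMUSG00000024620.11, chromosome 18, 61045150 to 61085061, plus strand), had nearly the same promoter signal in both libraries, 1.40 and 1.41 (1.41 ± 0.0108, SD, n = 2).

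**Figure D1:**
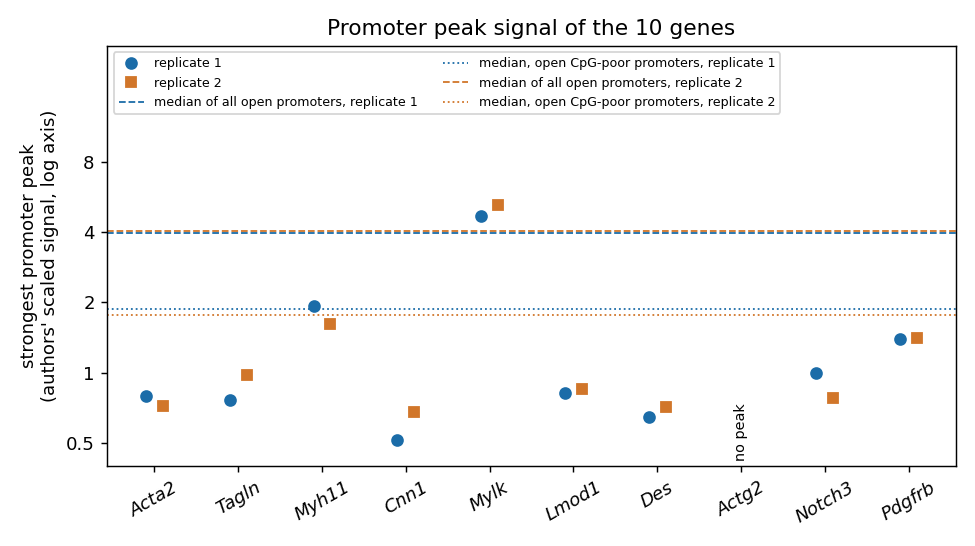
Strongest promoter peak of each gene in replicate 1 (circles) and replicate 2 (squares), in the authors' scaled signal on a log axis; dashed lines are the medians of all open promoters and dotted lines those of open CpG-poor promoters. Mylk sits above the dashed lines at 4.69 and 5.21, Myh11 near the dotted lines at 1.93 and 1.62, the other 7 open genes lie lower, and Actg2 had no peak.

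Ordered by mean promoter signal, Mylk led, followed by Myh11, Pdgfrb, Notch3, Tagln, Lmod1, Acta2, Des and Cnn1. The values of Mylk, Myh11 and Pdgfrb in both libraries did not overlap those of any other of the 10 genes. Lower down, those of Notch3 and Tagln overlapped, as did those of Tagln and Lmod1 and those of Des and Cnn1, so the order among these neighbours was within the spread of the libraries. Acta2 did not overlap Lmod1 or Des, but overlapped Tagln and Notch3, so its place below these was within the spread too. From replicate 1 to replicate 2 the log2 ratio of the open promoters ran from -0.36 in Notch3 to 0.40 in Cnn1, with a median of 0.06. Over all open genes its median was 0.11 and its SD 0.42, so 8 of the 9 lay within 1 SD of that median and Notch3 just beyond it.

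Starts poor in CpG are in general less often open, and most of these genes are CpG-poor. With a limit of 0.4 on the CpG ratio, chosen after the values were seen, 22.5% of the 8613 CpG-poor genes were open. Of the 10 genes, 7 fell below that limit, and 6 of the 7 were open. Their peaks were nonetheless weaker than those of other open CpG-poor genes. The 6 had a median of 0.807 in replicate 1 and 0.914 in replicate 2, against 1.87 and 1.77 for 1940 such genes. These levels are descriptions over 2 libraries, and no test was made.

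The count of open promoters depended on the peak list. Deposited with each library was also a shorter list (60823 and 50503 peaks). With these lists 5 of the 10 genes were open (Acta2, Myh11, Mylk, Lmod1 and Pdgfrb), against 58.0% of all genes. Tagln and Des then had no promoter peak in either library, Cnn1 had one in replicate 2 only and Notch3 in replicate 1 only. When only the annotated 5′ end was counted, the same 9 genes were open, against 56.6% of all genes.

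Within the 10 windows lay 161 open regions, of which 112 were shared, 31 were found in replicate 1 only and 18 in replicate 2 only. The shared portion was 69.6%, against 57.7% of all 112418 regions of the genome. The 112 comprised 11 regions at promoters of the 10 genes, 24 in their introns, 4 in their exons, 45 in the flanks and 28 at promoters of other genes. Of the 45 flanking sites, 23 lay in the body of another protein-coding gene. Density was a median of 7.34 shared regions per 100 kb, from 4.76 at Mylk to 10.9 at Cnn1, against 4.48 over all genes. Much of the density at Tagln and Cnn1 came from neighbours, with 7 of 11 and 6 of 12 shared regions at promoters of other genes.

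**Figure D2:**
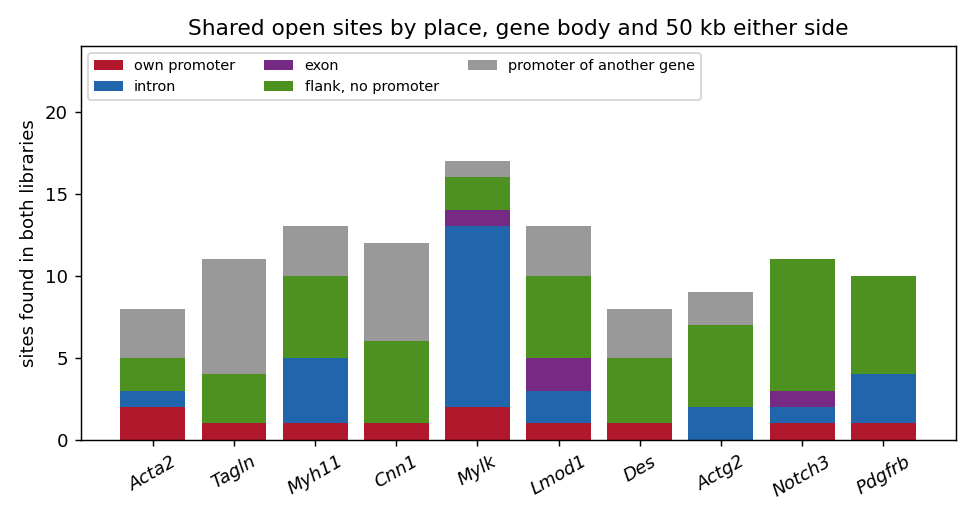
Number of open sites found in both libraries in each gene body and 50 kb either side, stacked by place. Mylk has the most with 17, of which 11 are intronic; Tagln, Cnn1 and Des have no shared intronic site, and no promoter of another gene was open in both libraries in the windows of Notch3 and Pdgfrb.

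Shared intronic sites were found in 7 of the 10 genes, against 30.9% of all protein-coding genes. The 10 genes were longer, with a median of 31.6 kb against 17.4 kb for all genes, and the counts were not adjusted for length. Mylk had 11, Myh11 4, Pdgfrb 3, Lmod1 and Actg2 2 each, and Acta2 and Notch3 1 each. Sites within 500 bp of any annotated start were counted as promoters instead, among them the Acta2 first intron site with the exact CArG box. The short genes Tagln, Cnn1 and Des had none. With the shorter peak lists 13 intronic sites were shared in place of 24. The 24 sites had a median of 1.25 in replicate 1 and 1.19 in replicate 2, against 1.12 and 0.977 for the genome's shared regions, promoters included. This rested on Mylk, which gave 11 of the 24. Among the sites of the other genes the middle value was 0.840 in replicate 1 (Notch3) and 0.860 in replicate 2 (Lmod1). Both were below the genome's medians. A further 6 intronic sites were in replicate 1 only and 7 in replicate 2 only. Footprints were present in 21 of the 24 in replicate 1 and in 22 in replicate 2. The same share over all intronic sites is not given here, so these counts cannot be read as particular to the 10 genes.

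The intronic sites of Mylk were concentrated in its 3′ portion. All 11 lay between 157.28 and 252.52 kb from the 5′ end, a stretch of 95.24 kb, and none in the first 150 kb. The strongest (chromosome 16, 34958721 to 34958940, 213.62 kb inside) reached 4.19 in replicate 1 and 5.67 in replicate 2, a level like that of the promoter (4.93 ± 1.05, SD, n = 2). Another at 179.95 kb (34925061 to 34925260) had 4.10 and 5.13, and one at 251.14 kb (34996261 to 34996440) had 2.49 and 2.70. The other 8 were below 2 in at least 1 library, and 7 of the 11 were higher in replicate 2. Long and short forms of the kinase differ in where transcription begins, but none of the 4 annotated starts between 155 and 208 kb had a peak within 500 bp in either library.

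A pair of these Mylk sites held an exact CArG box, and their sequences are shown with it in capitals (RefSeq genome, GRCm38.p6, plus strand). The strong site at 213.62 kb is chr16:34958721-34958940, and the weaker one, of 0.829 and 1.04 at 239.18 kb, is chr16:34984300-34984480. The Lmod1 intron site that follows (chr1:135347881-135348100, plus strand) lies 23.18 kb inside that gene and had 1.73 in replicate 1 and 1.89 in replicate 2, stronger than the Lmod1 promoter in both.
Mylk intron, 213.62 kb: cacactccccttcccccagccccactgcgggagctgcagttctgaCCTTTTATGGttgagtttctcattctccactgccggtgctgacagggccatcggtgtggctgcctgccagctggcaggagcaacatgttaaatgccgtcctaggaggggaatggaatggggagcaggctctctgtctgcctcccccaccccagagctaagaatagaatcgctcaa
Mylk intron, 239.18 kb: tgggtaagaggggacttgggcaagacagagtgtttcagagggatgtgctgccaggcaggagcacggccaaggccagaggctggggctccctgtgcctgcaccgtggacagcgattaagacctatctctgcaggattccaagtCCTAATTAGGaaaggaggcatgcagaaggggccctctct
Lmod1 intron, 23.18 kb: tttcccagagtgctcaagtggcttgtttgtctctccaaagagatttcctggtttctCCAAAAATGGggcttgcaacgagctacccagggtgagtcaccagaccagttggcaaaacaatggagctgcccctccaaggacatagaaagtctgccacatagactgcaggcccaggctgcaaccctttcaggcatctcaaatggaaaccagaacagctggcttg
The box of the 239.18 kb site has the same 10 letters as the box in the Acta2 first intron. Neither Mylk box overlapped a footprint in either library, but the box at 239.18 kb lay outside the peak of replicate 1, so only replicate 2 bears on it. The Lmod1 box did in both, with a footprint at 135347939 to 135347952 in replicate 1 and 135347942 to 135347950 in replicate 2.

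Myh11 had its strongest intronic site 53.87 kb inside the gene (chromosome 16, 14237401 to 14237600), at 2.72 in replicate 1 and 1.39 in replicate 2. Its other 3, at 25.60, 32.31 and 49.15 kb, ranged from 0.484 to 1.36. In Acta2 the single site classed as intronic (chromosome 19, 34244121 to 34244378, 11.34 kb inside) had 1.41 and 0.617, higher in replicate 1 by 2.28-fold. The strongest intronic site of Pdgfrb (chromosome 18, 61068481 to 61068680, 23.43 kb inside) also rested on replicate 1, with 4.24 against 1.00 in replicate 2. Its other 2, at 9.41 and 13.48 kb, had 0.571 to 0.649 in both libraries. The intronic site of Notch3, 4.59 kb inside, had 0.840 and 0.711, and a site over a Notch3 exon at 23.47 kb (chromosome 17, 32143281 to 32143480) had 2.77 and 1.54.

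**Figure D3:**
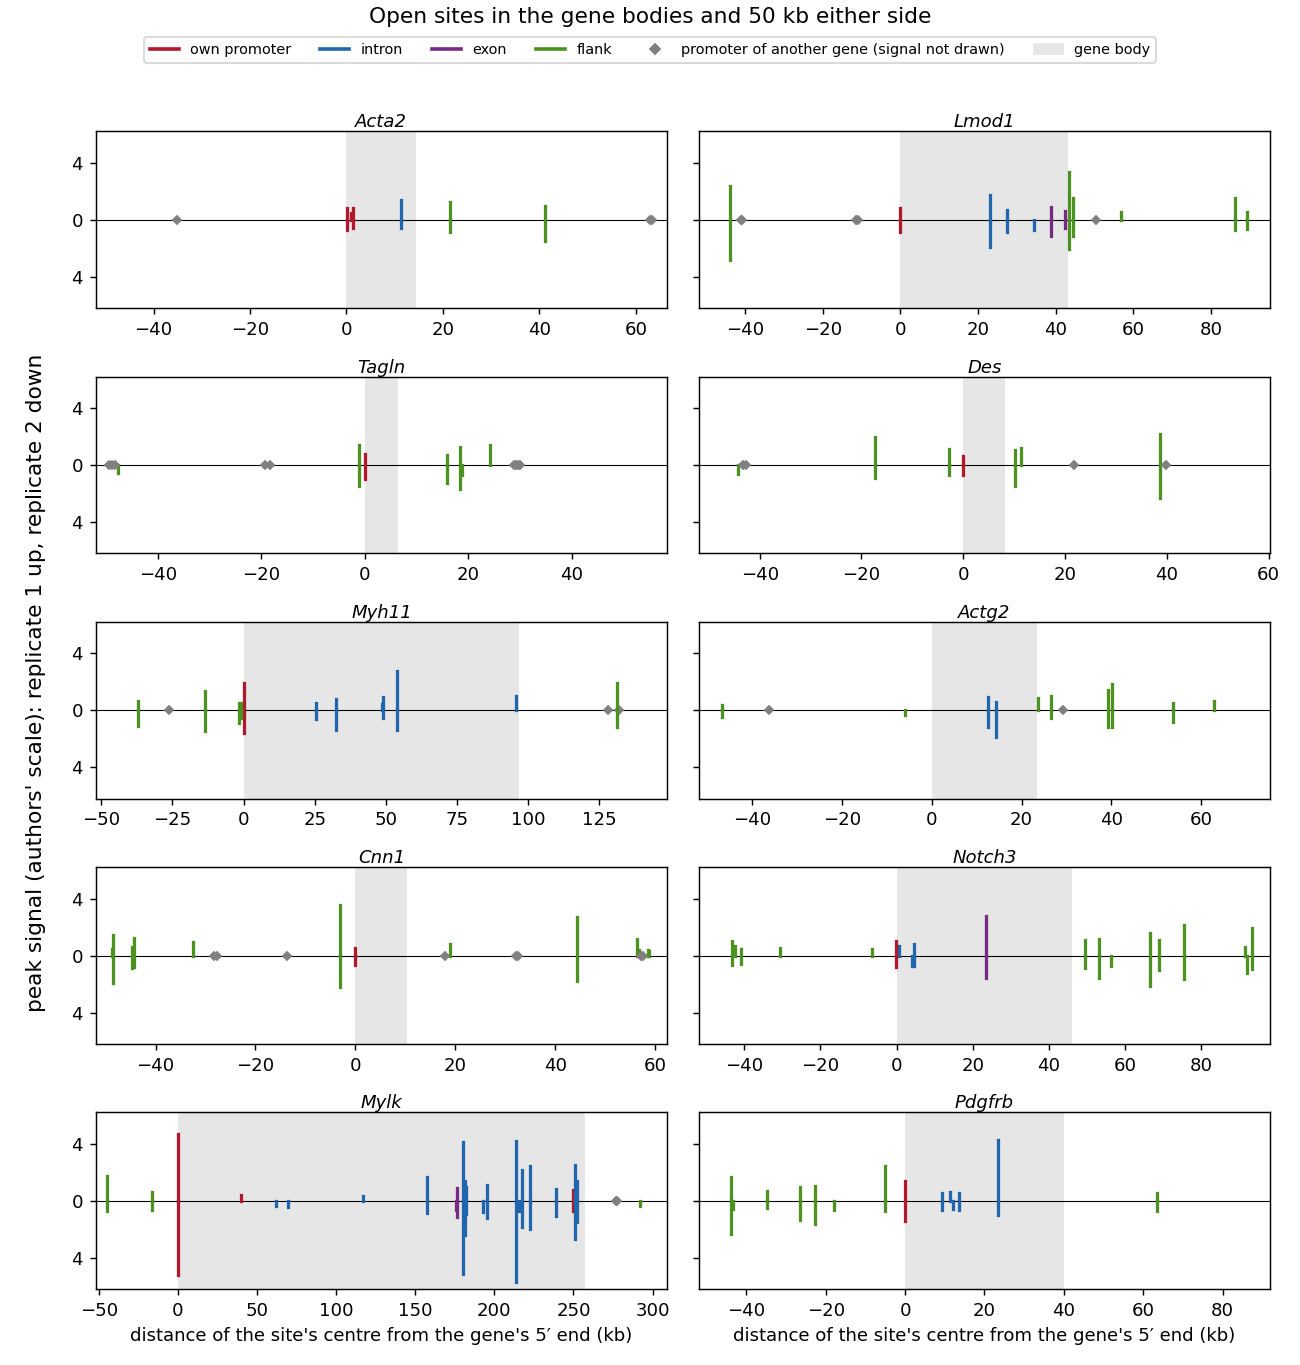
Open sites around each gene, with signal in replicate 1 drawn upward and in replicate 2 downward (authors' scale) against distance of the site's centre from the 5′ end in kb; grey shading is the gene body and diamonds are promoters of other genes. The 11 shared intronic sites of Mylk lie between 157.28 and 252.52 kb, and the tall Pdgfrb site at 23.43 kb is seen mostly in replicate 1.

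Several genes with weak promoters had stronger sites in the flanks. The strongest near Cnn1, 3.02 kb upstream (chromosome 9, 22096101 to 22096300), reached 3.53 in the first library and 2.19 in the second. Near Tagln a site 1.05 kb upstream (chromosome 9, 45937021 to 45937200) had 1.43 and 1.46. Just past the 3′ end of Lmod1, 43.59 kb from its 5′ end (chromosome 1, 135368301 to 135368500), a site had 3.34 and 2.06. In each of these 3 cases the flanking site exceeded the promoter of the gene in both libraries. The strongest for Des (chromosome 1, 75398821 to 75399040, 38.60 kb from the 5′ end) had 2.20 and 2.28 and lay inside Speg, a muscle kinase gene. For Acta2 it was a site 41.21 kb from the 5′ end, inside Stambpl1, with 0.980 and 1.52. For Actg2 it was a site 40.11 kb away, inside Dguok, with 1.81 and 1.20. Proximity alone places these sites with the genes, and which gene they act on was not measured.

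Between the libraries, 8 of the 112 shared regions (7.14%) differed by more than 2-fold, against 8.93% of all shared regions. Of the 8, 7 were higher in replicate 1. How the genome's regions over 2-fold apart divide by direction is not given here, so this count cannot be read as particular to these genes. The median log2 ratio from replicate 1 to replicate 2 was -0.03 over all shared regions of the genome and 0.12 over the 112. The largest was the Pdgfrb intronic site at 23.43 kb with a ratio of 4.24, followed by a site 5.13 kb upstream of Pdgfrb with 2.41 in replicate 1 and 0.703 in replicate 2, a ratio of 3.43. The Actg2 intronic site at 14.33 kb was the only one higher in replicate 2. Pdgfrb thus combined a promoter that matched closely between the libraries with the 2 sites that favoured replicate 1 most.

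**Figure D4:**
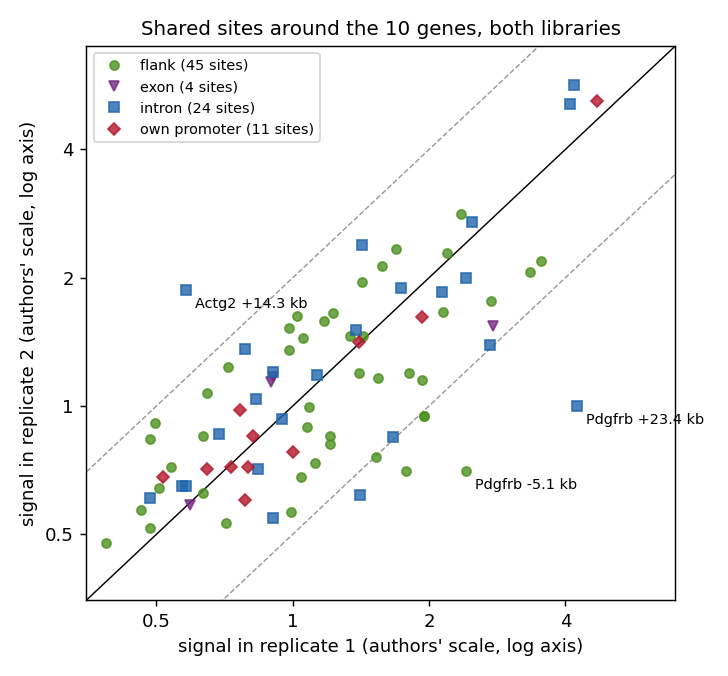
Signal of the shared sites around the 10 genes in replicate 1 (x axis) and replicate 2 (y axis), authors' scale on log axes, by place; promoters of other genes are left out. Most points lie within the dashed 2-fold lines around the diagonal, and the 3 labelled sites of Actg2 and Pdgfrb lie outside them.

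Promoters of 23 other protein-coding genes were open inside the windows of 8 of the 10 genes, with none in those of Notch3 and Pdgfrb. In both libraries each of the 23 was stronger than the promoter of the smooth muscle gene in whose window it lay. Actg2 itself had no peak, so any open neighbour counted as stronger there. For the other genes of these windows except Mylk, most open promoters of the genome were stronger too, with at most 24.8% weaker in either library. Dnpep, an aminopeptidase gene near Des, had 19.6 in replicate 1 and 32.3 in replicate 2. Marf1 near Myh11 had 12.9 and 18.8, and Fopnl and Nde1 in the same window had 8.41 and 10.2, and 5.67 and 6.17. Near Cnn1, Pigyl had 9.25 and 12.4, the shared start region of Zfp653 and Gm49318 6.52 and 9.39, Ecsit 5.36 and 7.39, Elof1 6.23 and 6.45, and Acp5 0.635 and 1.23. Every gene named here except Acp5 exceeded 5 in both libraries.

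Near Tagln, Pafah1b2 had 2.38 and 3.70 inside the window, the shared start region of Pcsk7 and Rnf214 a mean of 3.69 ± 0.273 (SD, n = 2), and Sidt2 3.64 and 3.60. Dguok and Stambp near Actg2 had 7.70 and 11.2, and 3.46 and 3.34. Near Lmod1, Timm17a had 5.08 and 4.92, Shisa4 1.26 and 1.51, and Rnpep 0.915 and 1.31. Hacd2 lay near Mylk with 6.73 and 6.98, and Speg near Des with 1.03 and 1.08. In the Acta2 window Fas was at 1.44 and 2.13 and Stambpl1 was at 1.49 and 0.961.

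Footprints in the 10 windows numbered 295 in replicate 1 and 368 in replicate 2, with a median width of 10 bp in both. Of these, 59.0% in replicate 1 and 48.6% in replicate 2 overlapped a footprint of the other library by at least 1 bp, against 49.9% and 45.2% over the genome. By gene the mean of both directions ran from 44.0% at Lmod1 to 60.6% at Mylk. Many footprints around these genes were thus seen in 1 library only.

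In all regions other than promoters of neighbouring genes, 8 exact CArG boxes were found, 6 of them in shared regions. In replicate 1, 6 of the 8 lay inside a peak of that library and 2 of these overlapped a footprint. In replicate 2, 7 lay inside a peak and 4 of these overlapped a footprint. Both libraries had a footprint at 2 boxes, those of the Acta2 and Lmod1 introns. Over all peaks of each library, 22.1% of 864 boxes inside them in replicate 1 and 28.4% of 746 in replicate 2 overlapped a footprint. In Tagln, a box centred 15 bp inside the annotated 5′ end and 170 bp upstream of its next start overlapped a footprint in replicate 2 only. So did a box in the site 15.99 kb from the 5′ end of Tagln, inside Pcsk7. A further 12 boxes had 1 C or G among the central bases, with 11 inside a peak of replicate 1 and 10 inside one of replicate 2, and of these 0 and 2 overlapped a footprint.

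**Figure D5:**
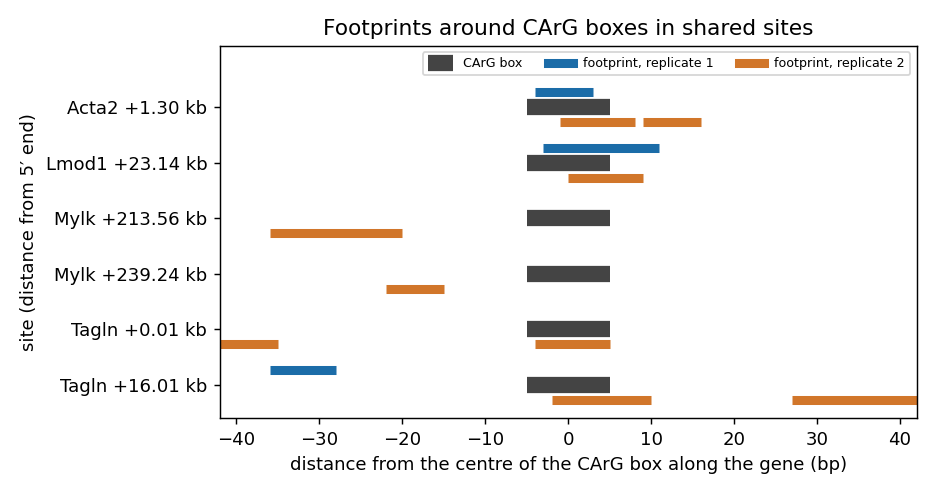
Footprints of replicate 1 (upper bars) and replicate 2 (lower bars) around the 6 exact CArG boxes in shared sites (dark bars), against distance from the centre of the box in bp along the gene. Footprints of both libraries overlap the box only at the Acta2 first intron and the Lmod1 intron site; at the 2 Tagln boxes only replicate 2 does, and at the 2 Mylk boxes neither does.

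Of the 10 genes, 2 had an exact CArG box in promoter peaks of both libraries, Acta2 (at its internal start) and Tagln, against 0.736% of all genes. With the shorter peak lists 0 genes did, and with the box required inside a footprint 1 did, Acta2. To compare regions of equal length, 200 bp around the centre of each shared region was searched. The box was present in 2 of the 11 promoter regions of the genes, against 0.763% of 19391 promoter regions, in 3 of their 24 intronic sites, and in 4 of all 73 sites outside promoters, against 1.09% of 45484. In RefSeq's promoter sequences, from 250 bp before to 50 bp after the start, no exact box was present for the 6 matched genes, and 1.64% of all promoters held one. With 1 C or G allowed, Acta2 was the only one of the 6 with a match, against 9.94% of all. These counts are small, and a match is a run of letters, not a measured binding site.

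Other short sequences were searched on both strands in the same 200 bp. The GC box was present in 6 of the 11 promoter regions, against 56.4% of all. Over the whole peaks it had 13 matches, of which 4 overlapped footprints of both libraries, 2 in Notch3 and 1 each in Mylk and Lmod1. The same share for GC boxes in all promoter peaks is not given here. In Notch3 the bases common to both libraries' footprints took in only 1 base of each box. Matches of TEAD (GGAATG) were in 4 of the 11, against 7.23%, of RBPJ (TGGGAA), the factor through which Notch receptors act, in 3, against 15.3%, of the E-box (CAGCTG) in 2, against 12.7%, and of the sequence of the GATA factors, spelled AGATAA, in 1, against 3.05%. AP-1 (TGANTCA), NR5A (AAGGTCA) and the MEF2 box had no match in the 11, against 3.66%, 2.45% and 0.242%. Among the 73 sites outside promoters, AP-1 was present in 12, against 12.9% of such regions, and GATA in 8, against 12.9%.

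Other genes of the same systems were read beside the 62.3% of all genes that were open. Of 14 other contractile genes, 13 were open, led by Vcl, which encodes vinculin at actin anchorage sites (13.0 in replicate 1 and 20.0 in replicate 2), and Tpm1, a tropomyosin (13.7 and 17.5). Both are used in many cell types. The exception was Kcnmb1, a subunit of the smooth muscle potassium channel, with no promoter peak in either library. The 13 had a median of 3.64 and 3.45, higher than that of the 10 genes described here. Of 12 regulators of the smooth muscle programme, 10 were open. Mrtfa, a partner of SRF, had 12.2 and 18.7, Srf 8.64 and 12.8, and the smooth muscle and heart coactivator Myocd 1.05 and 1.06. Nkx3-2 had no promoter peak in either library, and Prrx1 had one of 0.453 in replicate 2 only.

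Of 12 other mural and pericyte genes, 6 were open. Kcnj8, a subunit of the potassium channel of pericytes, had 1.71 in replicate 1 and 2.49 in replicate 2, and Mcam, an adhesion molecule, 2.19 and 1.66. Higd1b, Ndufa4l2, Vtn and Cox4i2 had no promoter peak in either library. Rgs5, a widely used pericyte marker, had 0.431 in replicate 1 only, and Abcc9 had a peak in replicate 2 only. A set for the NOTCH3 and PDGF receptors held their ligands, Notch targets and Rbpj, the gene of the factor through which Notch receptors act. All 12 of its genes were open, led by Rbpj (13.2 and 16.8) and the Notch target Hey2 (11.2 and 12.2). Among the ligands, Pdgfb had 1.66 and 1.88 and the Notch ligand Jag1 5.35 and 4.89. Of these 4 sets the pericyte genes had the fewest open promoters, 6 of 12, against 62.3% of all genes. They were also the poorest in CpG, with a median ratio of 0.372. The contractile set had 0.540, the regulators 0.619 and the receptor set 0.650. This is a description, and the part of CpG in it was not tested.

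Markers of other cells were read in the same way. All 6 ovary markers were open, with summed promoter signals of 23.7 in replicate 1 and 31.7 in replicate 2. Of 9 skeletal muscle markers 3 were open (Ckm, Mylpf and Actn3, summed 7.04 and 13.6), Mylpf through a start region it shares with Tbc1d10b, and Acta1, Myh1, Myh4, Tnnt3, Myod1 and Myog had no promoter peak. Of 9 heart markers, Myl4 alone was open (13.0 and 8.36), and Myh6, Myl7, Nppa, Tnnt2, Actc1 and Nkx2-5 had none, while Nppb and Tnni3 each had a peak in 1 library. Endothelial markers were open at 4 of 6, summing to 7.58 and 4.85, and stromal fibroblast markers at 4 of 5, summing to 10.2 and 6.37. Both sums were higher in replicate 1, mostly through Vwf (3.33 and 1.55) and Col1a1 (4.97 and 2.40), while Cdh5 (0.721 and 0.907) and Dcn (0.431 and 0.555) were higher in replicate 2. The summed promoter signal of the 10 genes was 12.6 in replicate 1 and 13.0 in replicate 2, of which Mylk gave 4.69 and 5.21. These sums run over lists of unequal length, so their levels are not comparable between cell types. Desmin, smooth muscle alpha-actin and PDGF receptor beta are also made outside smooth muscle, and the part of other cells in the signal at these genes was not tested.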

How the data were processed

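DNase-seq files of 2 libraries of 1 group, both from ovary, were used. Per the labels, the files are on mm10, and each belongs to 1 library. The deposited peak lists hold a signal scaled by the authors, whose target depth the labels do not give. Footprints carry a constant p-value label of 0.01, whose kind the authors' files do not state, and false discovery rates in the deposited files stop at 0.05. The aligner, the callers and the way CAST alleles were mapped remain not given in the sources used here.

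Peaks of both libraries were merged into regions and classed as promoter (500 bp either side of any start), exon, intron or flank. Signal over a region was that of its strongest peak. Python 3.11.15, NumPy 2.4.6, pysam 0.24.0, samtools 1.23.1 and Matplotlib 3.10.9 were used, and the overlap and motif steps were tested on simulated data. Every value is a description, and none was tested, since there is 1 group. Named are the 10 genes, the strongest shared regions of each window, the other genes with stronger promoters, and in each further list the 2 strongest and those with no peak. Rgs5, Abcc9, Prrx1, Myocd, Jag1, Vwf, Col1a1, Cdh5, Dcn, Pdgfb and the sites other than the strongest were named after their values were seen. The genes, lists and sequences were chosen with earlier results of these data known. Alternatives took the shorter peak lists, equal peak numbers, other widths, flanks and overlaps, other rules for matches, and each replicate left out.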

Additional observations from a re-analysis of the deposited data

How the results depend on the processing

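Of 30 alternative values for the counts, the footprint share and the median promoter signal, 22 stayed within 1.5 times the reported count or within 1 SD, and 8 moved. Those for the promoter signal of single genes are no check of stability: with 2 libraries each lies within 1 SD of their mean by construction, and a gene that lost its peak gave no value. The shorter peak lists left 5 open promoters in place of 9, 73 shared regions in place of 112, 13 shared intronic sites in place of 24 and 0 genes with a CArG box in promoter peaks of both libraries in place of 2. They raised the median of the mean promoter signals from 0.871 to 1.41, since 4 genes left it. A flank of 10 kb left 56 shared regions. With the CArG box required inside a footprint, 1 gene, Acta2, had one in both libraries. Leaving out each replicate in turn gave 9 to 9 open promoters, 130 to 143 regions, 30 to 31 intronic sites, 2 to 2 genes with a CArG box and a median of 0.818 to 0.852. With 1 library left, only a peak in that library was required. The counts could therefore hardly fall and are no check of stability, though they are among the 22. The median of 0.818, without replicate 2, is among the 8 that moved. The footprint share of 53.8% ranged from 46.9% to 59.2%. No paired analysis was possible because there is 1 group. Depth is unknown, and levels under the authors' limits, as at Actg2, were not measured.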
